A study of Mus musculus with 6 samples.

Results

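Signalling by norrin and Wnt in retinal vessels was examined through 10 genes chosen by name from the 24421 rows of the deposited expression table: the ligand gene Ndp, the receptor complex genes Fzd4, Lrp5, Lrp6 and Tspan12, and the target genes Lef1, Axin2, Apcdd1, Nkd1 and Notum. Each of the 10 had a row of its own. RNA sequencing covered 6 libraries, prepared from endothelial cells that had been isolated from retina of mice on the C57BL/6 background, aged 7 postnatal days. The 3 mutant libraries came from Anxa3 fl/fl;Tie2-Cre pups, in which a Cre recombinase driven by the Tie2 promoter, active in endothelial and blood-lineage cells, acts on floxed Anxa3 alleles. The 3 control libraries came from Anxa3 fl/fl pups, which carry the same floxed alleles without Cre, so effects of Cre and of Anxa3 loss cannot be told apart. The labels do not say how many pups went into a library, and the p-values therefore measure the spread between these libraries, which may be technical. The study sought genes that depend on Anxa3, which encodes a membrane-binding annexin, and that may bear on places where retinal arteries and veins cross.

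Norrin, the product of Ndp, is a secreted protein made chiefly by Muller glia in the retina. It binds the receptor Frizzled-4 on endothelial cells together with the co-receptors Lrp5 and Lrp6, and the tetraspanin Tspan12 strengthens that binding. The signal stabilises beta-catenin, which acts with TCF and LEF factors on target genes, and it is known for the growth of the deep retinal vessels and for the blood-retina barrier.

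Of the 10 genes, 9 were expressed highly enough to be tested, and for none of the 9 was the difference between mutants and controls past the threshold. The members split in how they varied. Lef1, Apcdd1, Fzd4, Tspan12 and, to a lesser degree, Lrp5 were high in the 1 control library with the highest endothelial marker level, whereas Lrp6, Axin2, Nkd1 and Ndp were close to their levels elsewhere or lower. Notum was the only member whose mutant and control values did not overlap, at under 1 FPKM in every library. Mutants likewise lay above all controls for 4.04% of the 3019 rows above 0 in every library with a mean under 1 FPKM.

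The promoters of 4 members are shown because they stand on both sides of that split: Fzd4, Tspan12 and Lef1 on the one side and Axin2 on the other. Each is the 250 bases before the RefSeq start on build GRCm38.p6, read 5′ to 3′ on the strand of the gene, with the letters CTTTG or their complement CAAAG in capitals. CTTTG is the core of the site that TCF and LEF factors bind.
Fzd4 (chr7:89404116-89404365, plus strand): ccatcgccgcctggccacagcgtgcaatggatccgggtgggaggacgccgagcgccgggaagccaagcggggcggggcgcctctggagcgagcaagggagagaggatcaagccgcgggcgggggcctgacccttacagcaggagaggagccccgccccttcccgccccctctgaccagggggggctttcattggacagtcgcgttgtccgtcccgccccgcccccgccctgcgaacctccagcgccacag
Tspan12 (chr6:21852534-21852783, minus strand): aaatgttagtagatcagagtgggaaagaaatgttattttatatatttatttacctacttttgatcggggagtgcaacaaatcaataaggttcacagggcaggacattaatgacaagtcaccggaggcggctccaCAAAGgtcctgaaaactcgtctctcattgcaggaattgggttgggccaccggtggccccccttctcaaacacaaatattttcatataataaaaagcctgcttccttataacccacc
Lef1 (chr3:131110047-131110296, plus strand, the first of 4 listed starts): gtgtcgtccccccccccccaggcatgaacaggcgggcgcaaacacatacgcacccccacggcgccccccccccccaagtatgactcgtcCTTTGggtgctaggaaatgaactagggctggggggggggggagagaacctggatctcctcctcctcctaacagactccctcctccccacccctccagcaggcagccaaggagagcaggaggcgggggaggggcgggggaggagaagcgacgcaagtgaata
Axin2 (chr11:108920099-108920348, plus strand): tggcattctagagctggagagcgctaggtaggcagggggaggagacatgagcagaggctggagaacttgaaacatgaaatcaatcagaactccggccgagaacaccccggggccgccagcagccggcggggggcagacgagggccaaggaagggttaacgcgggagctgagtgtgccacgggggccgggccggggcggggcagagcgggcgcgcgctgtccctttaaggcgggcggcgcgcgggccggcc

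Searched on both strands, CTTTG occurred once in the windows of Tspan12, Lef1 and Ndp, and at no position in those of Fzd4, Axin2 and Nkd1. Of all 32841 RefSeq promoter windows of this length, 48.6% held it. The longer string CTTTGA, which contains CTTTG, was in none of the 6 member windows and in 13.8% of all windows. The Fzd4, Axin2 and Lef1 windows were rich in G and C, at 72.8%, 69.2% and 66.4%, and those of Tspan12 and Ndp held 42% and 41.2%, beside a median of 52.4% over all windows. Neither the motif nor the base composition followed the split between the genes. RefSeq windows were matched for 6 of the 10 members. The Nkd1 window, at chr8:88527383-88527632, lies inside the gene as GENCODE places it, from 88521354 on the plus strand. It is thus not the promoter of that GENCODE start.

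Expression is given as FPKM, fragments scaled to gene length and library depth, which allows levels of different genes to be compared per length. The libraries held 21382573 to 30898851 reads recovered from the FPKM steps, and 13330 to 13693 genes reached 1 FPKM. Anxa3 measured 9.78, 12.5 and 15.1 FPKM in mutant replicates 1, 2 and 3, against 18.7, 17.7 and 43.4 FPKM in control replicates 1, 2 and 3, so the groups did not overlap. Its log2 difference was -0.93 (two-sided exact permutation p = 0.1, the smallest that 20 arrangements allow), and -0.53 without control replicate 3, the library with the highest Anxa3. In the limma fit used for the members, Anxa3 had an unadjusted p of 0.0204 and an adjusted p of 0.9998. The targeted gene itself thus did not pass over all genes. All 20 pan-endothelial markers were detected, with a summed level of 604 to 804 FPKM in mutants and 576 to 1281 FPKM in controls. Control replicate 3 stood apart at 1281 FPKM, 2.15 times the mean of the other 2 controls. All 10 photoreceptor markers were also detected, at a summed 4182 to 5560 FPKM in mutants and 3548 to 5070 FPKM in controls, with the lowest value in control replicate 3. The libraries labelled as endothelial cells thus also held abundant photoreceptor RNA. Pericyte and smooth muscle markers, 9 of 10 of them at 1 FPKM or more in at least 3 libraries, summed to 222 to 269 FPKM in mutants and 188 to 355 FPKM in controls, highest again in control replicate 3. The 4 haemoglobin genes of the erythroid list were listed at 0 everywhere. In such mixed samples, fewer cells of a type and less RNA per cell cannot be told apart.

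The order of the members by level was nearly the same in every library. Apcdd1, Lrp6 and Lrp5 held ranks 1, 2 and 3 in 6 of 6 libraries, and Ndp and Notum held ranks 9 and 10. The 5 genes in between exchanged places. Tspan12 exceeded Axin2 in 5 of 6 libraries with a mean log2 ratio of 0.15 ± 0.28 (SD, n = 6). Axin2 exceeded Fzd4 in 4 of 6, with a mean log2 ratio of -0.03 ± 0.28, and Nkd1 exceeded Lef1 in 3 of 6, at 0.01 ± 0.36 (SD, n = 6 each). These neighbours did not differ beyond their spread. Median levels ran from 49.0 FPKM for Apcdd1 to 0.243 FPKM for Notum.

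**Figure D1:**
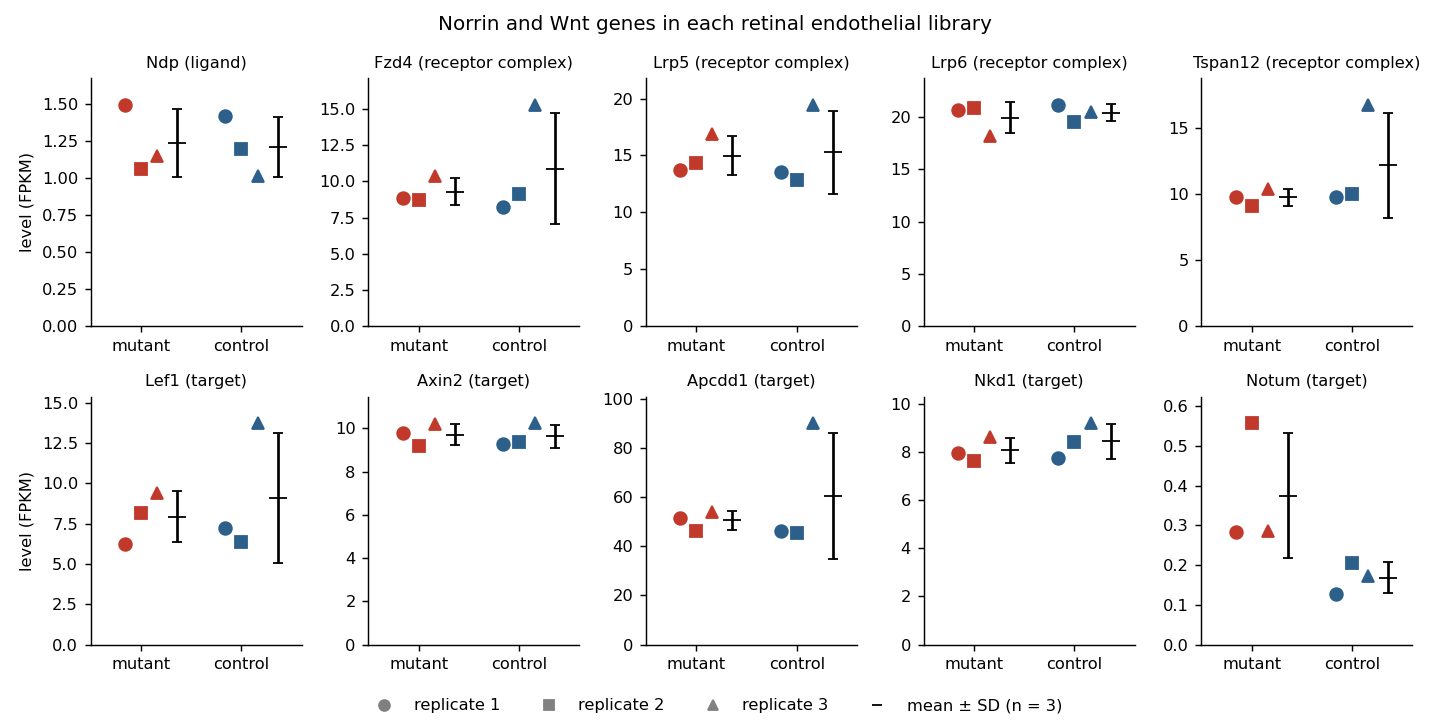
Level in FPKM (vertical axes, each from 0) of the 10 genes in the 3 mutant and 3 control libraries. Symbols mark the replicate number and black bars the mean ± SD (n = 3). Control replicate 3 is the highest library for Fzd4, Lrp5, Tspan12, Lef1, Axin2, Apcdd1 and Nkd1. The Notum groups do not overlap, as for 4.04% of rows above 0 in every library with a mean under 1 FPKM (mutants higher).

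The ligand gene Ndp, at chrX:16885521-16911774 on the minus strand of GRCm38, was close to the expression limit of 1 FPKM, and its values overlapped. It measured 1.49, 1.06 and 1.15 FPKM in mutant replicates 1, 2 and 3, against 1.42, 1.19 and 1.02 FPKM in control replicates 1, 2 and 3. The highest library was mutant replicate 1 and the lowest control replicate 3. Means were 1.23 ± 0.229 FPKM in mutants and 1.21 ± 0.203 FPKM in controls (SD, n = 3 each). The values rest on 51 to 85 reads, which alone give a counting error of 10.8% to 14.0%, against a coefficient of variation of 18.5% in mutants and 16.8% in controls. The limma log2 difference was 0.02 with a 95% confidence interval from -0.34 to 0.37. Markers of Muller glia, the known source of norrin, summed to 358 to 445 FPKM in mutants and 417 to 456 FPKM in controls. Control replicate 3 had the highest sum but the lowest mean on the log2(FPKM + 1) scale, 4.06, so the measures rank it differently. Relative to the mean of those 10 markers on the log2(FPKM + 1) scale, Ndp stood at -2.98, -3.06 and -3.27 in mutants and at -2.94, -3.18 and -3.05 in controls.

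The receptor gene Fzd4 encodes the Frizzled that norrin binds, and lies at chr7:89404355-89413134 on the plus strand. Its level was 8.85, 8.68 and 10.4 FPKM in the mutants and 8.23, 9.11 and 15.3 FPKM in the controls. The groups overlapped, since only control replicate 3 lay above every mutant. The log2 difference was -0.16 with a standard error of 0.209. Tspan12, at chr6:21771395-21852515 on the minus strand, showed the same arrangement, at 9.82, 9.11 and 10.4 FPKM in mutants and 9.80, 10.02 and 16.8 FPKM in controls. Its log2 difference was -0.26 (limma, unadjusted p = 0.223, adjusted p = 0.9998), with the smallest p among the tested members. The interval ran from -0.70 to 0.19. The Tspan12 to Fzd4 ratio within a library varied little, from 1.002 in mutant replicate 3 to 1.19 in control replicate 1. On the log2 scale it averaged 0.07 ± 0.07 in mutants and 0.17 ± 0.07 in controls (SD, n = 3 each; exact permutation p = 0.3).

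Both LDL-receptor-related co-receptors were expressed more highly than Fzd4 in every library, and they behaved differently from each other. Lrp5, at chr19:3584828-3686564 on the minus strand, measured 13.7, 14.3 and 16.9 FPKM in mutants and 13.5, 12.8 and 19.4 FPKM in controls. The groups overlapped, and control replicate 3 was again the highest library. Lrp6, at chr6:134446476-134566965 on the minus strand, measured 20.7, 20.9 and 18.2 FPKM in mutants and 21.2, 19.6 and 20.6 FPKM in controls. It was among the steadiest members, with a highest library 1.16 times its lowest. Log2 differences were -0.01 for Lrp5 and -0.04 for Lrp6, with standard errors of 0.163 and 0.0923. The Lrp6 to Lrp5 ratio was above 1 in 6 of 6 libraries. It was 1.51, 1.46 and 1.08 in mutant replicates 1, 2 and 3, against 1.57, 1.53 and 1.06 in control replicates 1, 2 and 3. The lowest ratio in each group belonged to its replicate 3, which was also the library with the highest endothelial marker level of its group. The log2 ratio did not differ between groups beyond its spread (difference -0.03, exact permutation p = 0.7).

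Among the 4 target genes above 1 FPKM, Apcdd1 and Lef1 varied most between libraries and were, like Fzd4, highest in control replicate 3. Apcdd1 encodes a membrane-bound Wnt inhibitor and lies at chr18:62922231-62961179 on the plus strand. It was the most abundant member, at 51.5, 46.4 and 53.8 FPKM in mutants and 46.3, 45.2 and 90.0 FPKM in controls. Without control replicate 3, the higher control, at 46.3 FPKM, and the lowest mutant, at 46.4 FPKM, were nearly equal. Lef1, a DNA-binding partner of beta-catenin, lies at chr3:131110471-131224356 on the plus strand. It measured 6.26, 8.14 and 9.38 FPKM in mutants and 7.25, 6.33 and 13.7 FPKM in controls, so that the groups overlapped. Log2 differences were -0.18 for Apcdd1, with an interval from -0.75 to 0.39, and -0.12 for Lef1, with an interval from -0.73 to 0.49. Within libraries the Apcdd1 to Fzd4 ratio was 5.82, 5.35 and 5.19 in mutants and 5.63, 4.96 and 5.89 in controls (exact permutation p = 0.9). For Lef1 over Fzd4 the ratio was 0.707, 0.938 and 0.905 in mutants and 0.881, 0.695 and 0.897 in controls (exact permutation p = 0.5).

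Axin2 and Nkd1, both feedback inhibitors of the pathway, were nearly level across the 6 libraries. Axin2 encodes a scaffold of the complex that degrades beta-catenin and lies at chr11:108920349-108950783 on the plus strand. It measured 9.77, 9.18 and 10.2 FPKM in mutants and 9.28, 9.37 and 10.2 FPKM in controls. Its highest library was 1.11 times its lowest, the narrowest range among the 10 members. Nkd1 encodes a Dishevelled-binding protein, at chr8:88521354-88594884 on the plus strand. It measured 7.96, 7.61 and 8.63 FPKM in mutants and 7.74, 8.38 and 9.17 FPKM in controls. Log2 differences were 0.01 with a standard error of 0.0981 for Axin2 and -0.06 with a standard error of 0.109 for Nkd1. The intervals, from -0.22 to 0.24 for Axin2 and from -0.31 to 0.20 for Nkd1, were narrower than those of Apcdd1 and Lef1. They describe the mixed samples, and how much of the Axin2 and Nkd1 RNA came from endothelial cells was not tested.

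Notum encodes a secreted enzyme that inactivates Wnt proteins and lies at chr11:120653788-120661175 on the minus strand. It stayed under 1 FPKM in all libraries and was therefore not among the genes tested. It measured 0.282, 0.557 and 0.285 FPKM in mutant replicates 1, 2 and 3, against 0.128, 0.205 and 0.172 FPKM in control replicates 1, 2 and 3. Every mutant library lay above every control library, as it did for 4.04% of the 3019 rows above 0 in every library with a mean under 1 FPKM and for 2.77% of the 19901 rows above 0 in at least 1 library. The recovered reads behind the values were 12, 35 and 16 in mutants and 8, 10 and 9 in controls. Exact 95% Poisson intervals, which cover counting error only, ran from 0.388 to 0.774 FPKM in mutant replicate 2, above the intervals of all 3 controls, of which the highest ended at 0.376 FPKM. The intervals of mutant replicates 1 and 3, from 0.146 to 0.493 and from 0.163 to 0.463 FPKM, overlapped those of the controls. The mean was 0.375 ± 0.158 FPKM in mutants and 0.168 ± 0.0383 FPKM in controls, a ratio of 2.22 (SD, n = 3 each). A two-sided exact permutation test on log2(FPKM + 1) gave p = 0.1, the smallest it can give. Without the filter on low values, limma gave a log2 difference of 0.23 (unadjusted p = 0.0304, adjusted p = 0.9998), so Notum did not pass over all genes. Without mutant replicate 2, the highest library, the log2 difference was 0.14.

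Of the 9 members tested with limma on log2(FPKM + 1), 0 rose and 0 fell in mutants at an adjusted p under 0.05. Over all 13620 genes tested the shares were 0% higher and 0% lower. At an unadjusted p under 0.05 the members again numbered 0, beside 0.896% of all genes higher and 0.316% lower in mutants. Among the 9, 7 log2 differences were below 0, beside 7152 of all 13620 genes tested. The median of the members was -0.06, against -0.01 over all genes tested. Tspan12, Apcdd1, Fzd4 and Lef1, with the largest negative differences, were all highest in control replicate 3. Without that library 3 of 9 differences were below 0 and the median was 0.05, with log2 differences of 0.18 for Lef1, 0.17 for Lrp5, 0.14 for Apcdd1, 0.09 for Fzd4 and -0.02 for Tspan12. Their intervals then narrowed, for Apcdd1 from -0.10 to 0.38 and for Tspan12 from -0.27 to 0.23. A difference that misses the threshold does not show that the groups are alike, and the interval of Lef1 without that library still reached 0.57.

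**Figure D2:**
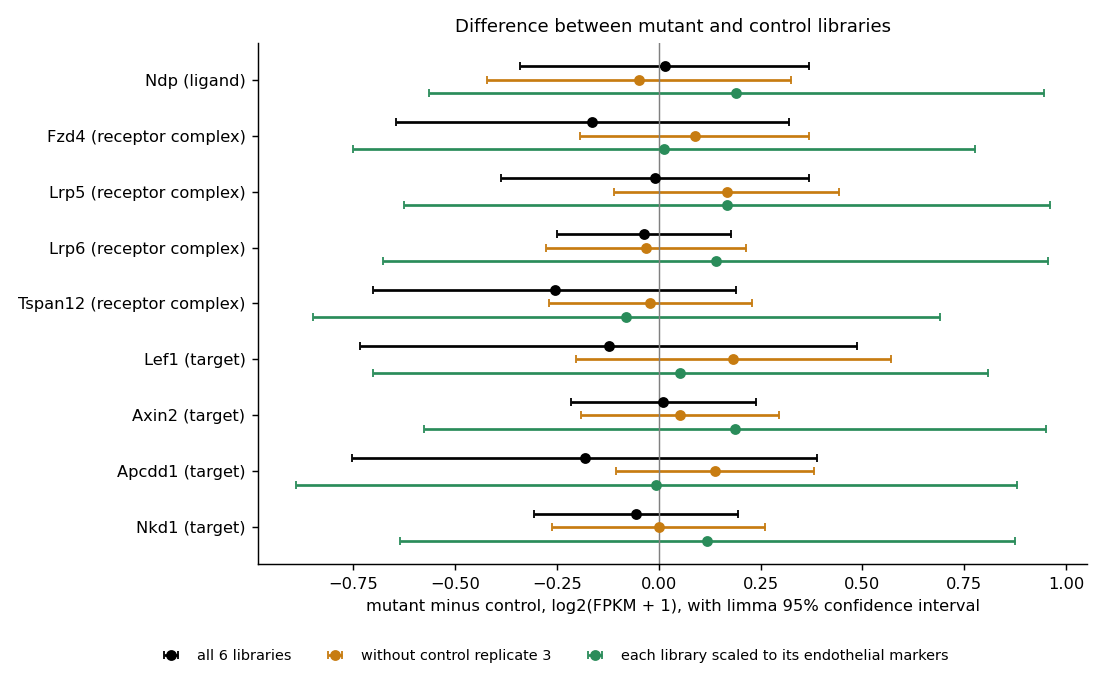
Mutant minus control difference in log2(FPKM + 1) for the 9 tested members (horizontal axis), with limma 95% confidence intervals. Black is the fit with all 6 libraries, orange the fit without control replicate 3, and green the fit with each library scaled to its endothelial markers. Every interval spans 0, and the black points of Tspan12, Apcdd1, Fzd4 and Lef1 lie furthest below it.

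The labels letter the libraries from A to F, without saying what the letters stand for, and the division into A to C and D to F used here is an assumption. Mutant replicate 1 and control replicates 1 and 2 are B, A and C, and mutant replicates 2 and 3 and control replicate 3 are E, F and D. Among A to C, where 1 mutant stands against 2 controls, the log2 differences of the tested members ran from -0.10 for Lef1 to 0.17 for Apcdd1. Among D to F, where 2 mutants stand against control replicate 3 alone, they were -0.84 for Apcdd1, -0.73 for Tspan12, -0.63 for Fzd4, -0.59 for Lef1 and -0.30 for Lrp5. The members Lrp6, Axin2, Nkd1 and Ndp lay between -0.16 and 0.06 there. Neither set has enough libraries for a test of its own. With these assumed sets as a term in the limma fit, the difference of Lef1 was -0.35 (unadjusted p = 0.0383, adjusted p = 0.720), that of Tspan12 was -0.37, that of Apcdd1 was -0.33 and that of Fzd4 was -0.30. Of all 13620 genes, 0 passed and 927 had an unadjusted p under 0.05 in that fit.

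The split among the members rests on control replicate 3. Control replicate 3 had a summed marker level 2.15 times that of the other 2 controls, and marker by marker the factor had a median of 2.05. The same factor was 2.02 for Lef1, 1.97 for Apcdd1, 1.76 for Fzd4, 1.69 for Tspan12 and 1.47 for Lrp5. It was 1.14 for Nkd1, 1.10 for Axin2, 1.03 for Notum, 1.01 for Lrp6 and 0.777 for Ndp. Over the 13600 tested genes other than the markers its median was 0.984, and 3.73% of them were at or above Lef1, 6.93% at or above Fzd4 and 12.3% at or above Lrp5. Within the mutants, where the endothelial level was lowest in replicate 1 and highest in replicate 3, Lef1 in replicate 3 was 1.499 times that in replicate 1. This ratio was 1.24 for Lrp5, 1.17 for Fzd4, 1.08 for Nkd1, 1.06 for Tspan12, 1.04 for Apcdd1 and Axin2, 1.01 for Notum, 0.882 for Lrp6 and 0.77 for Ndp. Tspan12 and Apcdd1 thus lay level with Axin2 and Nkd1 there, while Lef1, Lrp5 and Fzd4 lay above them. Within the mutants the split was therefore seen only in part.

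Set against the mean of the 20 markers on the log2(FPKM + 1) scale, the range of Lef1 over the 6 libraries shrank from 1.02 to 0.20. For Apcdd1 it shrank from 0.98 to 0.28, for Fzd4 from 0.82 to 0.40 and for Tspan12 from 0.82 to 0.39, while for Lrp5 it barely moved, from 0.56 to 0.54. For Axin2 the range widened from 0.14 to 0.97, for Lrp6 from 0.21 to 1.02, for Nkd1 from 0.24 to 0.97 and for Ndp from 0.31 to 1.32. A narrower range after this step was found for 10.6% of the 13600 tested genes other than the markers. This is a description of 6 libraries, of which control replicate 3 sets most of the range. The marker mean was 5.48 there and at most 4.80 in any other library. Genes high in control replicate 3 therefore tend to narrow, and level genes must widen. The step largely restates the split and is no separate evidence for it. In that library photoreceptor markers summed to 0.719 times and pericyte and smooth muscle markers to 1.82 times the mean of the other controls, and their part in these values was not tested. Relative to the markers, Lef1 stood at -1.60, -1.40 and -1.43 in mutants and at -1.48, -1.52 and -1.60 in controls, and Apcdd1 stood at 1.25, 0.97 and 0.97 in mutants and at 1.04, 1.14 and 1.03 in controls. With all libraries scaled in this way, member differences between mutants and controls ran from -0.08 for Tspan12 to 0.19 for Ndp. That scaling adds the same amount, 0.176, to the difference of every gene and to the median of all genes, so it leaves differences between genes as they were. No member passed (smallest adjusted p = 0.9936 with limma).

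**Figure D3:**
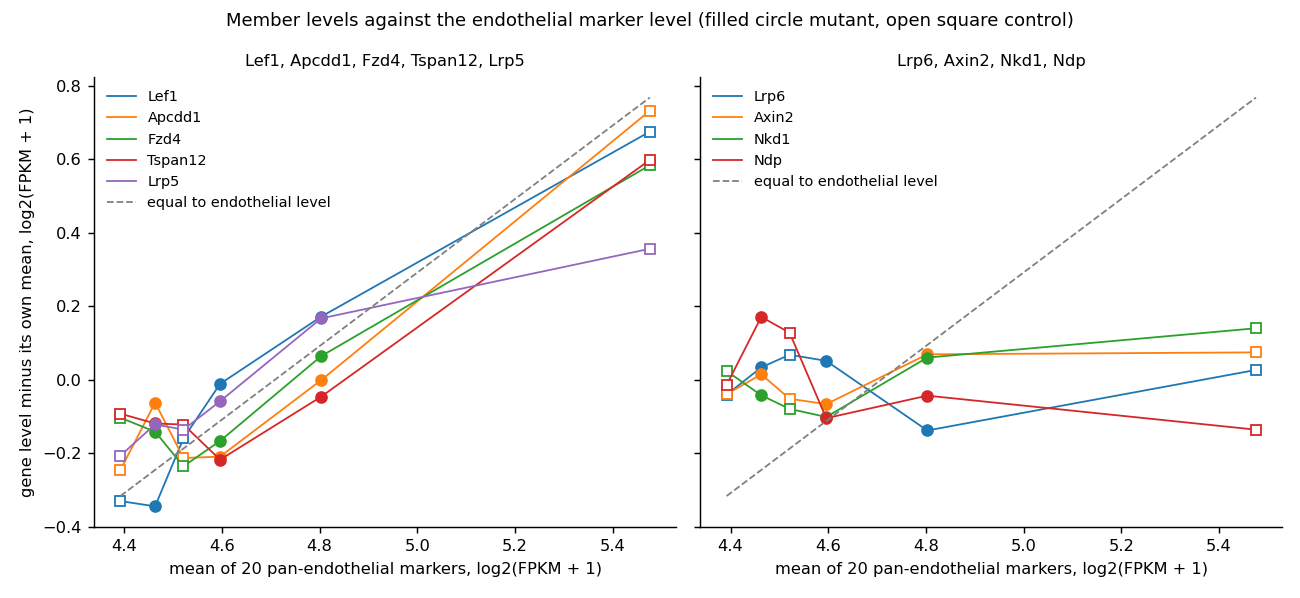
Level of each member minus its own mean over the 6 libraries (vertical axis, log2(FPKM + 1)) against the mean of 20 pan-endothelial markers (horizontal axis, log2(FPKM + 1)). Filled circles are mutants, open squares controls, and the dashed line has the slope of the marker level itself. Lef1, Apcdd1, Fzd4 and Tspan12 are high in the open squares of control replicate 3 at 5.48, and Lrp6, Axin2, Nkd1 and Ndp are not.

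The genes nearest to a member in profile, by the root mean square difference of centred log2(FPKM + 1) values over the 6 libraries, were found among 10098 genes, or 10099 for Ndp, with a mean of at least 5 FPKM. For Lef1 they were Sh2d3c, at 0.0314, and Itpr1, at 0.0372, against a deviation of Lef1 itself of 0.351. Those of Apcdd1 were Fam101b, at 0.0259, and Slc7a1, at 0.0297. Those of Fzd4 were Rhob and Dusp3, at 0.0394 and 0.0405, and those of Tspan12 were Gja1 and Ly6e, at 0.0334 and 0.0421. Ndp, with a small deviation of 0.113, lay nearest to Npm1 and Mpp6, at 0.00986 and 0.0163, but its values rest on 51 to 85 reads. The profiles of Lef1, Apcdd1, Fzd4 and Tspan12 are set largely by control replicate 3. The nearest of so many genes are close by selection, and whether these are closer than by chance was not tested.

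In the wider Wnt pathway no gene passed the test either. Of 101 listed genes found in the table, 66 reached the expression limit, and 0 rose and 0 fell in mutants (limma, adjusted p under 0.05, smallest adjusted p = 0.9998, beside 0% of all genes in each direction). Their median log2 difference was -0.07, against -0.01 over all genes, and 0.02 without control replicate 3. The groups did not overlap for 3 of the 66 genes, all lower in mutants, beside 1.56% of all tested genes lower and 2.79% higher. These were the cell-cycle gene Ccnd1, at 27.5 to 29.8 FPKM in mutants and 31.5 to 38.2 FPKM in controls, the Axin2 relative Axin1, at 17.4 to 17.9 FPKM in mutants and 18.0 to 19.3 FPKM in controls, and the secreted inhibitor Frzb, at 1.57 to 1.71 FPKM in mutants and 1.75 to 2.04 FPKM in controls. Frzb and Axin1 were chosen after their values were seen.

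Wnt ligands were scarce in these preparations. Of 19 Wnt genes, 17 fell under the expression limit, and 0 of the 2 tested passed. Wnt5b measured 2.10 ± 0.0686 FPKM in mutants and 2.172 ± 0.375 FPKM in controls, and Wnt5a measured 1.68 ± 0.194 FPKM in mutants and 1.83 ± 0.357 FPKM in controls (SD, n = 3 each). Ndp, at a mean of 1.22 FPKM over all libraries, was thus of the same order as the most abundant Wnt genes. Of the 9 other Frizzled receptors 8 were tested, and 0 passed. Fzd6 was the most abundant Frizzled, at 23.5 ± 1.63 FPKM in mutants and 28.0 ± 10.9 FPKM in controls, above Fzd4. It was 1.85 times as high in control replicate 3 as in the other controls. It was the only one of the 8 whose range narrowed relative to the endothelial markers, which largely follows from that factor. Fzd5 measured 10.9 ± 0.964 FPKM in mutants and 11.8 ± 1.49 FPKM in controls.

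Of 16 co-receptor and surface modulator genes 10 were tested, and 0 passed. The receptor-like kinase Ryk measured 24.1 ± 0.63 FPKM in mutants and 24.7 ± 1.28 FPKM in controls. Adgra2, also called Gpr124, an endothelial partner of Wnt7 signalling in brain vessels, measured 15.4 ± 1.91 FPKM in mutants and 17.3 ± 0.939 FPKM in controls, with a log2 difference of -0.16. Of 14 genes listed as inhibitors at or outside the cell surface 5 were tested, and 0 passed. Dkk3 had the highest level among them, at 56.0 ± 3.06 FPKM in mutants and 57.5 ± 8.78 FPKM in controls. Whether Dkk3 inhibits Wnt signals in these cells was not tested. The dickkopf receptor gene Kremen1 measured 12.4 ± 0.947 FPKM in mutants and 13.7 ± 1.25 FPKM in controls. All 20 intracellular and TCF genes were tested, 0 passed, and their median log2 difference was -0.05. Beta-catenin itself, Ctnnb1, measured 221 ± 19.6 FPKM in mutants and 248 ± 28.0 FPKM in controls, and its kinase Gsk3b measured 42.3 ± 6.34 FPKM in mutants and 46.4 ± 3.01 FPKM in controls.

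The 15 endothelial barrier genes held downstream of norrin and Wnt signals were, like Fzd4 and Lef1, high in control replicate 3. The list also holds Plvap, a marker of leaky vessels that these signals are known to repress. All 15 were tested, 0 passed, and 15 of 15 differences were below 0 with a median of -0.19. This was not particular to them, since all 20 pan-endothelial markers were also lower in the mutant mean. Of all 13620 genes tested, 7152 had a difference below 0. Scaled to the endothelial markers, the barrier genes had a median of -0.02, with 8 of 15 below 0. Without control replicate 3 and without that scaling, their median was 0.14, with 3 of 15 below 0. The factor of control replicate 3 over the other controls had a median of 2.06, and the range of 14 of the 15 narrowed relative to the endothelial markers. That narrowing largely follows from the factor. The tight-junction gene Cldn5 measured 170 ± 41.4 FPKM in mutants and 183 ± 90.8 FPKM in controls, and the proteoglycan gene Spock2 measured 93.4 ± 7.00 FPKM in mutants and 122 ± 47.6 FPKM in controls. The glucose transporter gene Slc2a1, chosen after its values were seen, was the 1 gene that did not narrow, and its factor of 1.28 was the lowest of the 15. Among 6 tested target genes other than the members, 0 passed, and Ccnd1 had the smallest unadjusted p (0.0592), with a log2 difference of -0.23.

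**Figure D4:**
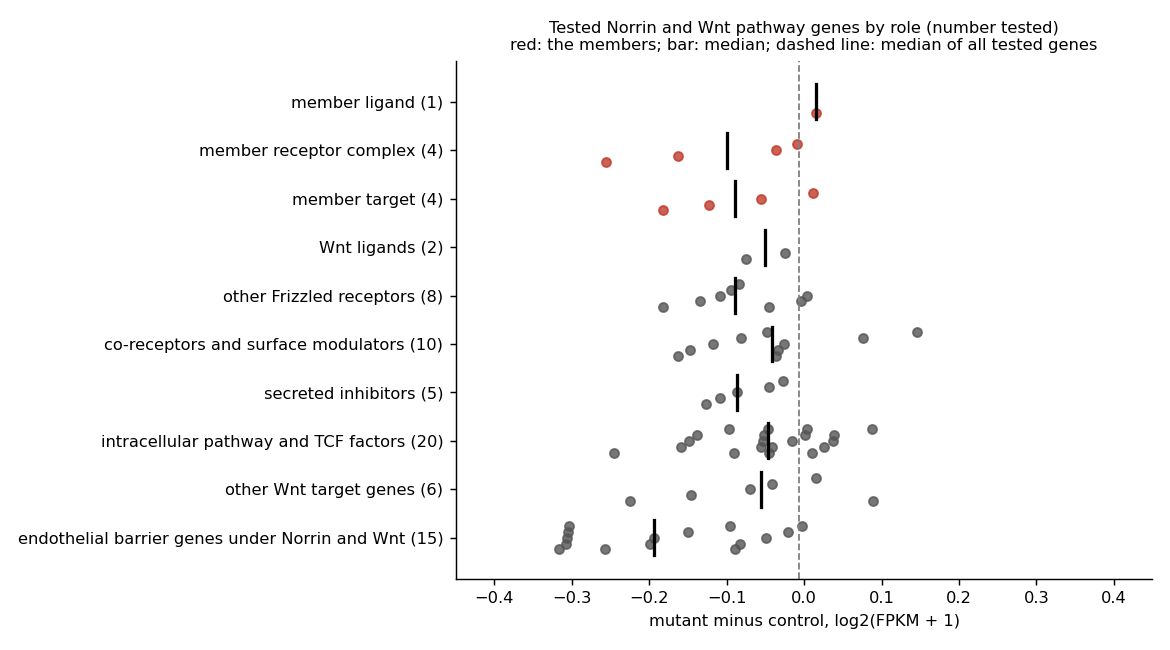
Mutant minus control difference in log2(FPKM + 1) (horizontal axis) of the tested pathway genes, 1 point a gene, grouped by role, with the number tested in brackets. Black bars are group medians and the dashed line is the median of all tested genes at -0.01. The barrier genes have the lowest median, -0.19, and all points lie between -0.32 and 0.15. The 20 pan-endothelial markers, all lower in the mutant mean, are not shown.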

How the data were processed

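Expression was measured in 6 RNA sequencing libraries, 3 mutant and 3 control, grouped by the genotype in the labels. Values are FPKM, as the authors deposited them in a single table. Per the submitters' processing notes reads were handled on mm10 with Cufflinks 2.2.1, STAR 2.5.0b, DESeq2 and bedtools 2.17.0, in roles that are not stated. Whether counting used strand is not given in the sources used here, so reads of overlapping genes cannot be told apart. Of 24421 rows, 24419 symbols were distinct. Per the labels' protocols, TruSeq RNA v2 library kits were applied to total RNA.

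Low FPKM values were whole multiples of 1 read, from which reads were recovered, whole within 0.002 to 0.05 reads for all 16489 symbols above 0 in every library. For rows with few reads this is not a strict test.

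Mutants were compared with controls in R 4.3.3 by a two-sided limma 3.58.1 fit with a trend, on values of log2(FPKM + 1). The 13620 genes that reached 1 FPKM in 3 or more libraries were tested, and p-values were adjusted over all of them after Benjamini and Hochberg, at a threshold of 0.05. The log2(FPKM + 1) scale understates changes of low genes. Single values were compared by exact permutation. The fit was tested on simulated data. The members and lists were chosen with earlier results of these data known. Besides the members and Anxa3, the text names in each pathway list the gene with the highest mean FPKM and the gene with the smallest unadjusted p. For 5 members it also names the 2 genes nearest in profile. Promoters are RefSeq's and gene positions GENCODE M21's, both on GRCm38, another name of mm10. Alternatives were another pseudocount (0.1), other filters, quantile normalization, median-of-ratios scaling, blocks for the replicate number and for the letters A to C and D to F, library weights, limma voom on recovered reads, scaling to the endothelial markers and the omission of each library. Python 3.11.15, pandas 2.3.3, scipy 1.17.1 and matplotlib 3.10.9 were used.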

Additional observations from a re-analysis of the deposited data

How the results depend on the processing

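Under all 16 alternatives, 0 of the tested members and 0 of the other pathway genes passed an adjusted p under 0.05. Over all genes the count was 0 in every alternative but 2: 145 with library weights, which ran from 0.260 to 7.00, and 2 with scaling to the endothelial markers. The weights were 7.00 for mutant replicate 2 and 3.34 for control replicate 2, and at most 0.748 for any other library. The weighted fit thus rests mainly on 1 library of each group. The smallest adjusted p of a member was 0.239, for Lef1 with library weights. With the replicate number as a block (replicate block), 0 genes passed, 296 had an unadjusted p under 0.05 against 165 without it and 97 with limma voom, and Tspan12 kept its log2 difference of -0.26 with an adjusted p of 0.9997. Same-numbered libraries correlated at 0.249, -0.151 and 0.39. Mutant replicates 1 and 3 correlated best with the control of their own number, and mutant replicate 2 with control replicate 3, at 0.0836. The block lowered the standard error of Lef1 from 0.264 to 0.165 and barely moved that of Lrp6, from 0.0923 to 0.0913. The labels state no pairing and the main fit used none, but a pairing by number is not excluded.

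Endothelial scaling adds 0.176 to the log2 difference of every gene, so its sign changes follow from that shift. They were 0.013 for Fzd4, 0.17 for Lrp5, 0.14 for Lrp6, 0.053 for Lef1, 0.12 for Nkd1, 0.15 for Wnt5b, 0.10 for Wnt5a, 0.068 for Fzd5, 0.14 for Ryk, 0.013 for Adgra2, 0.15 for Dkk3, 0.049 for Kremen1, 0.017 for Ctnnb1, 0.037 for Gsk3b and 0.15 for Cldn5. For the other settings the cause of sign changes was not tested. With library weights the differences that changed sign were -0.092 for Ndp, 0.12 for Lrp5, 0.051 for Lrp6, 0.23 for Lef1, -0.016 for Axin2, 0.042 for Wnt5b, 0.13 for Wnt5a, 0.047 for Fzd6 and 0.31 for Cldn5. With the assumed letter sets as a block they were -0.0064 for Axin2 and 0.040 for Dkk3. Ndp changed sign with limma voom on recovered reads, at -0.0066, and with quantile normalization, at -0.016. When each library was left out in turn, differences that changed sign ran from -0.35 to 0.14 for Apcdd1, from -0.020 to 0.051 for Axin2, from -0.28 to 0.36 for Cldn5, from -0.14 to 0.081 for Dkk3, from -0.32 to 0.088 for Fzd4, from -0.40 to 0.11 for Fzd6, from -0.32 to 0.18 for Lef1, from -0.11 to 0.17 for Lrp5, from -0.070 to 0.025 for Lrp6, from -0.067 to 0.083 for Ndp, from -0.11 to 0 for Nkd1, from -0.069 to 0.0018 for Ryk, from -0.15 to 0.024 for Wnt5a and from -0.075 to 0.070 for Wnt5b. Mutant minus control differences of log2 level ratios ran from -0.080 to 0.043 for Apcdd1 over Fzd4, from -0.076 to 0.17 for Lef1 over Fzd4 and from -0.21 to 0.13 for Lrp6 over Lrp5. Tspan12 stayed below 0, from -0.38 to -0.02, as did Anxa3, from -1.15 to -0.53, and Notum stayed above 0, from 0.14 to 0.28. The exact test of Notum and the alternatives for Anxa3 other than leaving out libraries were added after the data were seen. Depth limits Notum and Ndp, with at most 35 and 85 reads in a library.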
